A study of Arabidopsis thaliana with 18 samples.

Results

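Indole glucosinolates are tryptophan-derived defence compounds of Arabidopsis and its relatives, and the 10 genes described here encode enzymes that make them, an enzyme and a transporter that put them to use, and regulators of the pathway. The genes were taken by their gene codes: CYP83B1 (AT4G31500), SUR1 (AT2G20610), UGT74B1 (AT1G24100), SOT16 (AT1G74100), CYP81F2 (AT5G57220), PEN2 (AT2G44490), PEN3 (AT1G59870), MYB34 (AT5G60890), MYB51 (AT1G18570) and MYB122 (AT1G74080). They are 10 of the 32678 genes listed in the count files, and all 10 were among the 20622 genes kept by the filter on low counts. MYB122 passed that filter through its ozone libraries, since no control group held more than 3 counts of it, so its call in an ozone response was fixed by the filter. None of the 10 overlapped another annotated gene. Their coordinates below are those of the count files' build, TAIR10.

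RNA came from whole rosettes of plants 3 weeks old. The 3 genotypes were Col-0, the accession most used in laboratories, Cvi-0, an ozone-sensitive accession, and Col-S, a near-isogenic line into which the sensitivity of Cvi-0 was brought by crossing to Col-0. The 6 groups were a control and an ozone treatment (350 ppb for 2 h) of each genotype, with 3 biological replicates per group, and 10 to 15 rosettes were pooled for a library. No group is labelled with a transgene, and Col-S is a single line. A difference between Col-S and Col-0 is therefore one between that line and Col-0, and its cause was not tested.

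In the pathway, the cytochromes P450 CYP79B2 and CYP79B3 turn tryptophan into indole-3-acetaldoxime, CYP83B1 oxidises this to an activated form that is joined to glutathione, the lyase SUR1 releases a thiohydroximate, the glucosyltransferase UGT74B1 adds glucose, and the sulfotransferase SOT16 adds sulfate to give the parent indole glucosinolate. CYP81F2 then hydroxylates the indole ring, and indole glucosinolate methyltransferases (IGMT genes) methylate it. PEN2 is an atypical myrosinase that cleaves indole glucosinolates inside leaf cells during defence, and PEN3 is a plasma membrane ABC transporter that acts in the same branch of resistance against fungi. MYB34, MYB51 and MYB122 are related transcription factors that activate the biosynthetic genes.

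Total counts per library ran from 14905841 to 26171613, so that 3 counts in 1 library corresponded to 0.109 to 0.207 CPM. CPM here means counts scaled to a common library total, with TMM factors applied. The 3 rosette markers summed to 14144 CPM or more in every library, whereas the 4 root markers reached at most 2.07 CPM with 2 of them at 0 in all groups, and the 4 flower markers reached at most 2.81 CPM. The rosette marker sum ran from 43093 to 44462 CPM in Col-0 controls and from 26635 to 35266 CPM after ozone, from 38352 to 41430 and from 14144 to 17698 CPM in Cvi-0, and from 38547 to 42514 and from 18970 to 22827 CPM in Col-S. The part of this fall in the results below was not tested, and in whole rosettes fewer cells of a type cannot be told apart from less RNA per cell.

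Ozone raised most of the 10 genes in every genotype. In Col-0, 7 of the 10 rose, MYB34 fell, and SUR1 and UGT74B1 did not pass the test (edgeR quasi-likelihood test, Benjamini-Hochberg adjusted p under 0.05 over all tested genes). In Cvi-0, 8 rose and 2 fell, and in Col-S 7 rose and 1 fell. Without MYB122 the counts were 6 of 9 higher in Col-0, 7 of 9 in Cvi-0 and 6 of 9 in Col-S. Of all tested genes, 29.8% were called higher and 27.5% lower in Col-0. The shares were 34.5% higher and 36.1% lower in Cvi-0, with 34.3% higher and 34% lower in Col-S. The median log2 fold change of the 10 genes was 2.17 in Col-0, 2.25 in Cvi-0 and 2.16 in Col-S, and over all tested genes it was -0.02, -0.05 and -0.03. MYB122 at its counted ratio or bound left these medians as they were.

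The split of all calls depended on the scaling. With upper quartile scaling the median of all genes shifted by -0.278, -0.326 and -0.339 on the log2 scale in Col-0, Cvi-0 and Col-S, and higher genes made up 34.4%, 36.4% and 35.7% of calls in place of 52%, 48.9% and 50.3%. With library totals alone the shifts were -0.124, -0.131 and -0.178 and the shares 43.6%, 43.3% and 42.1%. The 3 ozone values of a gene lay clear of its 3 control values for 8 of the 10 genes in Col-0, 10 in Cvi-0 and 8 in Col-S, with SUR1 and UGT74B1 overlapping in Col-0 and Col-S. MYB122 is counted in each genotype. It passed the filter through its ozone libraries, so its separation, like its call, adds no support. Among all tested genes 63.4%, 73.7% and 70.8% showed no overlap in either direction.

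**Figure D1:**
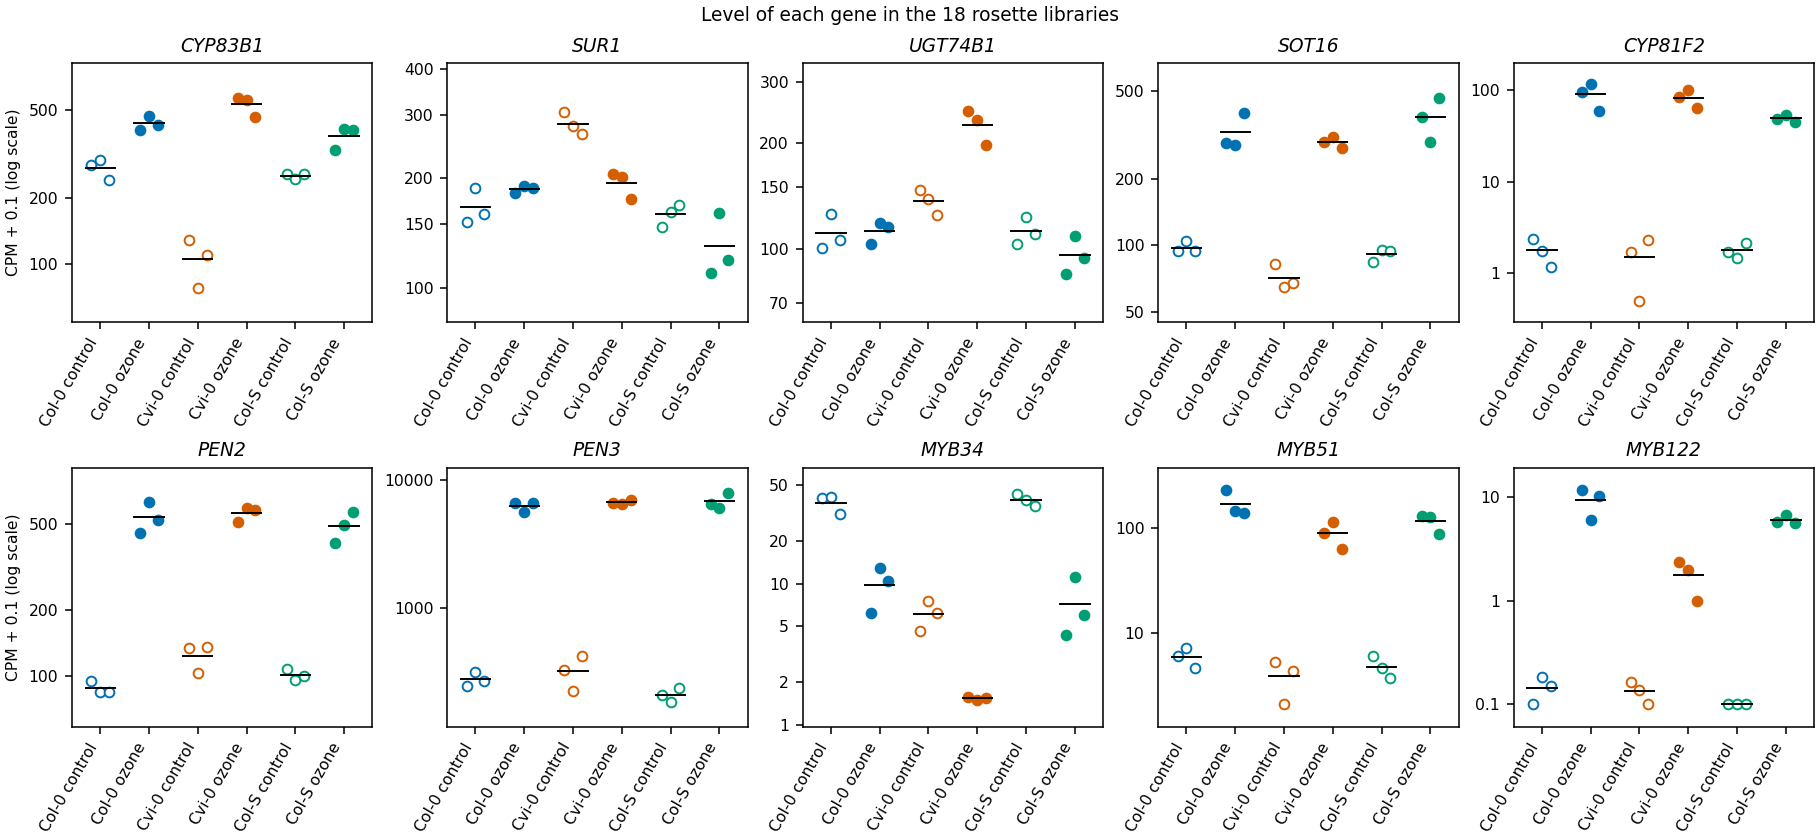
CPM plus 0.1 on a log axis for each of the 10 genes in the 18 libraries. Open points are controls, filled points are ozone libraries, blue is Col-0, orange Cvi-0 and green Col-S, and black lines are means of 3 libraries. PEN3 rises from 211 to 324 CPM in the control means to between 6284 and 6801 CPM in the ozone means, MYB34 falls in each genotype, and Cvi-0 controls lie lowest for CYP83B1.

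**Figure D2:**
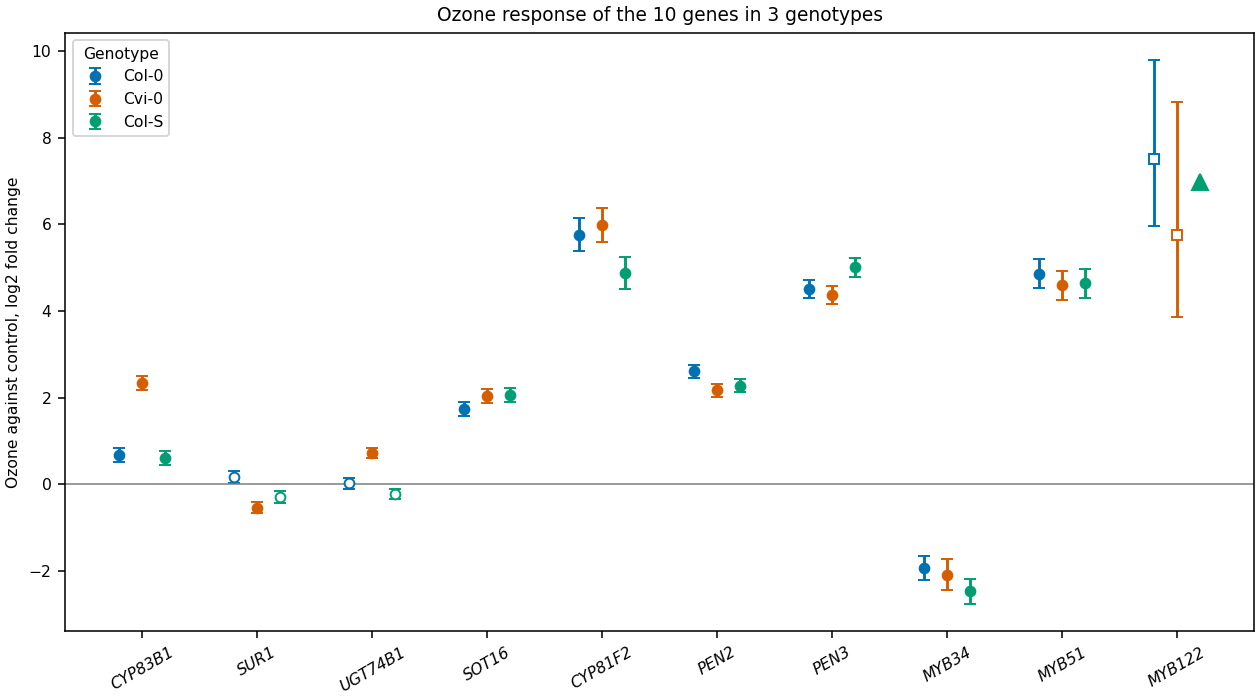
Log2 fold change of ozone against control for each gene and genotype, with the SE of the fit as bars. Filled circles passed the test and open circles did not. For MYB122 the squares are ratios of counts with exact 95% intervals and the triangle is a lower bound. CYP83B1, SUR1 and UGT74B1 are the genes whose Cvi-0 point stands apart from Col-0.

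CYP83B1 (chromosome 4, 15273471 to 15275310, minus strand), which commits indole-3-acetaldoxime to glucosinolates, rose in all 3 genotypes and most in Cvi-0. In Col-0 its controls stood at 281, 299 and 241 CPM and its ozone libraries at 408, 470 and 430 CPM. In Cvi-0 the controls stood at 129, 78.0 and 109 CPM and the ozone libraries at 571, 560 and 468 CPM. In Col-S the controls stood at 257, 242 and 255 CPM and the ozone libraries at 329, 412 and 407 CPM. Ozone and control values did not overlap in any genotype, and the Cvi-0 controls lay below every other library. The log2 fold change was 0.67 (SE 0.15, edgeR adjusted p = 0.0012) in Col-0, 2.34 (SE 0.16, 9.5e-10) in Cvi-0 and 0.61 (SE 0.15, 0.0021) in Col-S. The Col-S call was lost under upper quartile scaling alone (log2 0.27, adjusted p = 0.11) and held under the other 13 of 14 alternatives, library totals among them (0.43, 0.016). Upper quartile scaling also gave 0.40 in Col-0, where the call held (0.028).

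The response of CYP83B1 was 3.18-fold larger in Cvi-0 than in Col-0 by the interaction contrast (log2 1.67, SE 0.22, edgeR adjusted p = 6.7e-05). Col-S differed from Cvi-0 by -1.73 (SE 0.22, 0.00012), while its difference from Col-0 was -0.07 (SE 0.22, 0.92). These contrasts share their control and ozone libraries pairwise. The Cvi-0 control level was 2.60-fold below that of Col-0 (log2 -1.38, SE 0.16, 3.7e-06), and after ozone Cvi-0 stood at 533 ± 56.5 CPM against 436 ± 31.2 CPM in Col-0 (SD, n = 3), with a log2 difference of 0.29 (SE 0.15) that did not pass the test (0.13).

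The step before CYP83B1 showed the same contrast between genotypes. CYP79B2 (AT4G39950) stood at 69.1, 66.4 and 50.8 CPM in Col-0 controls and at 74.6, 136 and 133 CPM after ozone. In Cvi-0 its controls stood at 17.8, 12.7 and 15.1 CPM and its ozone libraries at 388, 378 and 338 CPM, so that the lowest control and the highest ozone level of the series were both Cvi-0. In Col-S, 71.7, 54.5 and 68.2 CPM in controls compared with 109, 162 and 247 CPM after ozone. CYP79B2 rose 1.84-fold in Col-0 (edgeR adjusted p = 0.0066), 24.3-fold in Cvi-0 (3.8e-10) and 2.67-fold in Col-S (1e-04).

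CYP79B3 (AT2G22330), the second enzyme of that step, rose in Cvi-0 alone among the 3 tests. It went from 20.6, 17.9 and 19.1 CPM to 107, 109 and 96.1 CPM in Cvi-0 (log2 fold change 2.44, SE 0.20, edgeR adjusted p = 9.9e-09). In Col-0 it stood at 95.4, 89.7 and 79.3 CPM in controls and 44.5, 85.1 and 67.2 CPM after ozone, where 1 ozone value lay inside the control range (log2 -0.43, SE 0.19, 0.064), and in Col-S it fell by 0.46 on the log2 scale (SE 0.19, 0.041). The interaction of Cvi-0 against Col-0 was 3.72 (SE 0.37, 6.4e-06) for CYP79B2 and 2.87 (SE 0.27, 4.6e-06) for CYP79B3. Cvi-0 controls were 4.09-fold lower than Col-0 controls for CYP79B2 (2e-05) and 4.60-fold lower for CYP79B3 (2.5e-07). After ozone they were 3.21-fold (4.3e-05) and 1.59-fold (0.0077) higher.

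**Figure D3:**
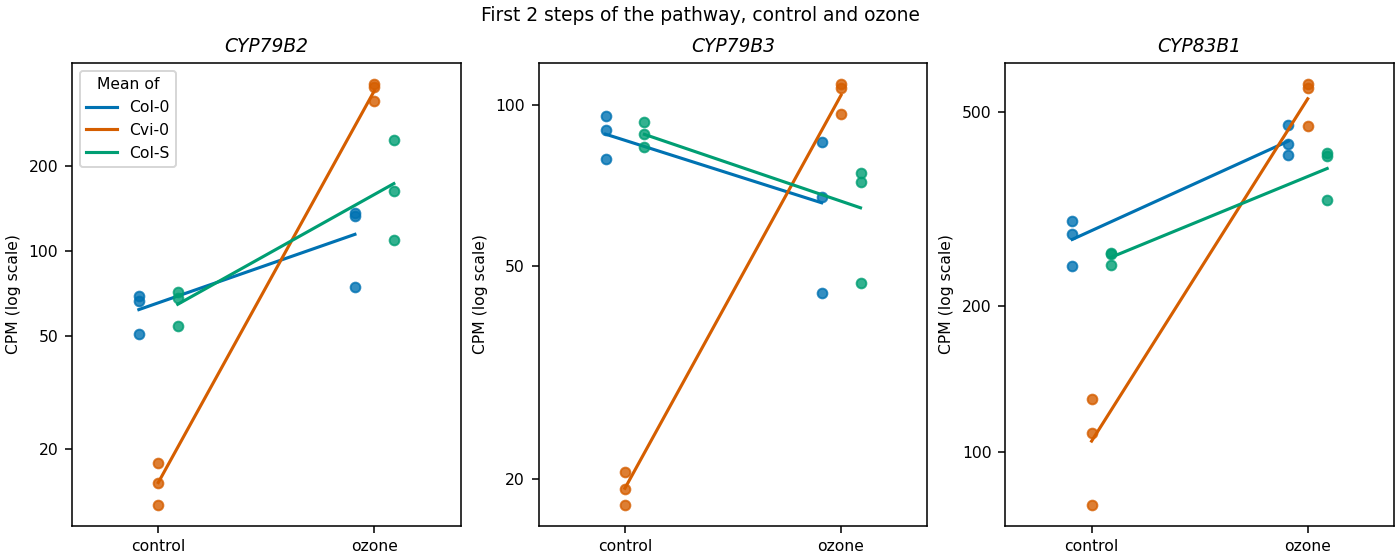
CPM on a log axis for CYP79B2, CYP79B3 and CYP83B1 in controls and after ozone. Points are libraries, and lines join the means of 3 libraries of Col-0 (blue), Cvi-0 (orange) and Col-S (green). Cvi-0 has the lowest control level and the highest ozone level of each gene, with means of 15.2 and 368 CPM for CYP79B2.

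The middle steps moved little, and only in Cvi-0 did both pass the test. SUR1 (chromosome 2, 8877960 to 8880388, minus strand), the lyase also used for aliphatic glucosinolates, stood at 151, 188 and 160 CPM in Col-0 controls and 182, 191 and 188 CPM after ozone. In Cvi-0 it went from 304, 279 and 265 CPM to 205, 201 and 176 CPM, the highest control level and a fall that brought it to that of Col-0. In Col-S, 147, 161 and 169 CPM in controls compared with 110, 161 and 119 CPM after ozone, where replicate 2 lay within the control range. SUR1 changed by 0.17 on the log2 scale (SE 0.13, edgeR adjusted p = 0.29) in Col-0, fell by 0.54 (SE 0.13, 0.0013) in Cvi-0 and stood 0.29 lower in Col-S without passing the test (0.057). In Col-S the call came with upper quartile scaling (log2 -0.63, adjusted p = 4e-04), with library totals only (-0.47, 0.0055) and with a replicate block in the fit (-0.30, 0.027). Without the ozone library of replicate 2 or the control of replicate 1 of Col-S it also passed (0.0023 and 0.048). Cvi-0 and Col-0 differed in their responses (log2 -0.71, SE 0.18, 0.011).

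UGT74B1 (chromosome 1, 8525435 to 8527087, minus strand), the glucosyltransferase, rose in Cvi-0 from 148, 139 and 125 CPM to 247, 234 and 198 CPM (log2 fold change 0.72, SE 0.12, edgeR adjusted p = 5.7e-05). In Col-0 it stood at 101, 126 and 106 CPM in controls and 103, 119 and 115 CPM after ozone, and in Col-S at 103, 123 and 110 CPM and 84.7, 109 and 94.2 CPM. Ozone and control values overlapped in both of these genotypes. The log2 changes there were 0.02 (0.92) and -0.23 (0.12). For Col-S, upper quartile scaling gave -0.56 (adjusted p = 0.00062), library totals alone -0.40 (0.009) and the fit without its ozone replicate 2 -0.33 (0.041). The Cvi-0 response differed from that of Col-0 by 0.70 (SE 0.18, 0.0089) and that of Col-S from Cvi-0 by -0.95 (SE 0.18, 0.0038).

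SOT16 (chromosome 1, 27864345 to 27865694, minus strand), the sulfotransferase of the last core step, rose alike in the 3 tests. Its Col-0 controls stood at 94.4, 104 and 94.0 CPM and its ozone libraries at 291, 284 and 398 CPM. In Cvi-0 these were 82.2, 64.4 and 67.2 CPM and 295, 308 and 277 CPM, and in Col-S 84.2, 95.4 and 93.7 CPM and 379, 293 and 465 CPM. Every ozone value lay above every control value of the series. On the log2 scale the rise was 1.73 (SE 0.16, edgeR adjusted p = 8.3e-08) in Col-0, 2.04 (6.7e-09) in Cvi-0 and 2.06 (6.7e-09) in Col-S. No interaction passed the test, the widest being 0.32 (SE 0.22, 0.48) between Col-S and Col-0.

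CYP81F2 (chromosome 5, 23187840 to 23189857, plus strand), the ring hydroxylase that leads to methoxylated indole glucosinolates, was low in controls and rose in every genotype. Its Col-0 controls held 39, 41 and 21 counts (2.30, 1.68 and 1.08 CPM) and its ozone libraries 1949, 2838 and 1110 counts (95.7, 116 and 60.2 CPM). In Cvi-0 the values were 1.59, 0.40 and 2.19 CPM in controls and 85.6, 100.1 and 64.6 CPM after ozone, and in Col-S 1.61, 1.39 and 2.04 CPM and 48.4, 54.4 and 45.5 CPM. All 9 ozone values exceeded all 9 controls, and the 3 Col-S ozone values lay below the 6 of the other genotypes. Its log2 fold change was 5.76 (SE 0.38, edgeR adjusted p = 1.1e-09) in Col-0, 5.99 (SE 0.39, 5.1e-10) in Cvi-0 and 4.87 (SE 0.37, 4.1e-09) in Col-S, and no interaction passed the test. After ozone Col-S was 1.83-fold below Col-0 (log2 -0.88, SE 0.29, 0.047), a call lost in DESeq2 (0.06), with median-ratio size factors (0.054), in a fit of those groups alone (0.06), and without either of Col-0 ozone replicates 1 and 2 or any Col-S ozone library (0.053 to 0.19). Against Cvi-0 the log2 difference was -0.76 (0.059), which passed with a replicate block (-0.74, 0.035) and in a fit of those groups alone (-0.74, 0.011).

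The sequences upstream of 3 genes that rose in every genotype are shown: CYP81F2, the myrosinase gene PEN2, and the regulator MYB51. MYB51 is described further below. CYP83B1, SOT16, PEN3 and MYB122 also rose in every genotype, and their windows are not printed. Each run is the 250 bases before the RefSeq transcript start on the TAIR10.1 assembly, 5′ to 3′ on the plus strand, and capitals mark a W-box, the element bound by WRKY factors, searched as TTGACC or TTGACT on both strands.
CYP81F2, chr5:23187590-23187839: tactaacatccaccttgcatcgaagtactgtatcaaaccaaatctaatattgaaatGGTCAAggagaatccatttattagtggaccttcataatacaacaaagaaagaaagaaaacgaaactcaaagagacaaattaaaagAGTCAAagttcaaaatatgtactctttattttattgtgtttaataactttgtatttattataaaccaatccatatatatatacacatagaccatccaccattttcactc
PEN2, chr2:18364402-18364651: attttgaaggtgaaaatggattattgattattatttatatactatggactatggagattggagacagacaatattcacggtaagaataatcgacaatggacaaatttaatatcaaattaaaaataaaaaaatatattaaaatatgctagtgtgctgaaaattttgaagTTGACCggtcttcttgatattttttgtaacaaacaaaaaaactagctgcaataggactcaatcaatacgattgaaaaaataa
MYB51, chr1:6389149-6389398: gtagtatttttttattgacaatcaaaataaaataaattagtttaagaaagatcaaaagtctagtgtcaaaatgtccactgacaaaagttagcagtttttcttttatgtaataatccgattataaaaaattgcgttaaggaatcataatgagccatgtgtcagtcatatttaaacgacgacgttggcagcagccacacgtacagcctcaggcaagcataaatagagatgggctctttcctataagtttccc
The W-boxes of CYP81F2 lay on the minus strand at -194 to -189 and -109 to -104 from the start, and that of PEN2 on the plus strand at -82 to -77. SUR1 and PEN3 also held one, so 4 of the 10 windows did, and 28.4% of 27443 windows of the same length in the genome did. A G-box (CACGTG) was in the SUR1 window and in 6.49% of all windows, and an AC element (ACCTACC or ACCAACC) was in the UGT74B1 and SOT16 windows and in 3.79% of all windows. None of these motifs was in the MYB51 window. A match describes the letters only.

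PEN2 rose in all 3 genotypes. Its controls held 95.01, 84.4 and 84.2 CPM in Col-0, 134, 103 and 136 CPM in Cvi-0, and 108, 95.9 and 99.8 CPM in Col-S. The ozone libraries held 454, 626 and 519 CPM in Col-0, 511, 591 and 575 CPM in Cvi-0, and 409, 490 and 567 CPM in Col-S. The ozone ranges of the 3 genotypes overlapped one another. The log2 fold change was 2.60 (SE 0.15, edgeR adjusted p = 2.5e-10) in Col-0, 2.17 (SE 0.15, 9.9e-10) in Cvi-0 and 2.27 (SE 0.15, 6.3e-10) in Col-S. PEN2 lies on chromosome 2 at 18364756 to 18367725 (TAIR10), in a 1-Mb bin where 24 genes were called different between the controls of Cvi-0 and Col-0 with a fold of 2 or more; 21 of them stood nearer to Cvi-0 in Col-S controls, against 10.5% of such genes in the other bins. The Col-S control level of PEN2 itself, 101.1 ± 6.00 CPM, lay between 87.9 ± 6.20 CPM in Col-0 and 124 ± 18.6 CPM in Cvi-0 (SD, n = 3), and neither difference passed the test (adjusted p = 1 and 0.17).

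PEN3, on chromosome 1 at 22034506 to 22040038, had the highest level of the 10 genes after ozone. Its controls held 246, 318 and 270 CPM in Col-0, 326, 225 and 420 CPM in Cvi-0 and 210, 186 and 238 CPM in Col-S. After ozone it stood at 6638, 5600 and 6613 CPM in Col-0, 6630, 6485 and 6998 CPM in Cvi-0, and 6479, 6024 and 7899 CPM in Col-S. The lowest ozone library was thus far above the highest control, and the 3 genotypes overlapped after ozone. The log2 fold change was 4.50 (SE 0.21, edgeR adjusted p = 2.5e-11) in Col-0, 4.37 (SE 0.21, 1.3e-11) in Cvi-0 and 5.01 (SE 0.22, 5.3e-12) in Col-S. Per kb of transcript, PEN3 stood at 1275 ± 120 CPM in Col-0, 1360 ± 53.7 CPM in Cvi-0 and 1379 ± 198 CPM in Col-S after ozone (SD, n = 3). Per kb in controls the highest of the 10 genes was CYP83B1 in Col-0 and Col-S, at 144 ± 15.5 and 132 ± 4.20 CPM per kb, and SUR1 in Cvi-0, at 151 ± 10.5 CPM per kb.

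The 3 regulators moved in opposite directions. MYB34 (chromosome 5, 24494691 to 24496351, plus strand), first known from a mutant with altered tryptophan regulation, fell in all 3 genotypes, whereas MYB51 and MYB122 rose. MYB34 stood at 40.4, 41.0 and 30.96 CPM in Col-0 controls and 6.14, 12.8 and 10.3 CPM after ozone, and in Col-S at 43.1, 39.3 and 35.2 CPM and 4.24, 11.0 and 5.86 CPM. In Cvi-0 it held only 4.52, 7.50 and 6.11 CPM in controls, inside the range that the Col-0 and Col-S ozone libraries spanned, and 1.48, 1.38 and 1.45 CPM after ozone. Its log2 fold change was -1.94 (SE 0.28, edgeR adjusted p = 1.4e-05) in Col-0, -2.08 (SE 0.36, 6.7e-05) in Cvi-0 and -2.47 (SE 0.29, 7.9e-07) in Col-S, with no interaction past the test. The Cvi-0 level was 6.12-fold below Col-0 in controls (log2 -2.61, SE 0.29, 2.8e-06) and 6.78-fold below after ozone (log2 -2.76, SE 0.36, 7.7e-06).

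MYB51 (chromosome 1, 6389411 to 6391267, plus strand), the regulator most tied to responses to pathogens and flagellin, stood at 5.95, 7.12 and 4.54 CPM in Col-0 controls and 228, 146 and 139 CPM after ozone. In Cvi-0 the values were 5.22, 2.00 and 4.23 CPM and 90.2, 114 and 62.8 CPM, and in Col-S 5.88, 4.54 and 3.59 CPM and 131, 128 and 87.7 CPM. Every ozone library lay above every control. The log2 fold change was 4.86 (SE 0.34, edgeR adjusted p = 1.9e-09) in Col-0, 4.59 (SE 0.34, 2.6e-09) in Cvi-0 and 4.63 (SE 0.34, 2.1e-09) in Col-S. After ozone Cvi-0 stood 1.92-fold below Col-0 (log2 -0.94, SE 0.28, edgeR adjusted p = 0.01), but not without Col-0 ozone replicate 1, its highest library (-0.68, 0.063).

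MYB122 (chromosome 1, 27855699 to 27857534, plus strand) was close to absent from controls, with 0, 2 and 1 counts in the Col-0 libraries, 1, 1 and 0 in Cvi-0 and 0 in each of Col-S, which allows up to 3 counts in that group. After ozone it held 236, 146 and 188 counts in Col-0 (11.6, 5.98 and 10.2 CPM), 40, 31 and 13 in Cvi-0 (2.28, 1.87 and 0.90 CPM) and 116, 139 and 82 in Col-S (5.72, 6.69 and 5.58 CPM). The ratio of ozone to control, from counts and scaled library totals summed over the libraries of a group, was 183 in Col-0. Its exact 95% interval, for counting error only, ran from 62.2 to 889. In Cvi-0 the ratio was 54.2 (14.5 to 455). In Col-S it was at least 125, against 3 counts over the control group. After ozone the Cvi-0 level was 5.40-fold below Col-0 (log2 -2.43, SE 0.31, edgeR adjusted p = 1.4e-05) and 3.52-fold below Col-S (0.00046).

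Ozone thus went with a change in which of the 3 regulators made up most of the message. MYB34 held 86.5% ± 1.19 of their summed CPM per kb in Col-0 controls, 61.4% ± 16.3 in Cvi-0 controls and 89.5% ± 1.39 in Col-S controls (SD, n = 3). After ozone it held 5.56% ± 2.74, 1.66% ± 0.527 and 5.47% ± 2.29. MYB51 held 88.9% ± 2.98 in Col-0, 96.3% ± 0.678 in Cvi-0 and 89.1% ± 2.83 in Col-S after ozone. The sum itself went from 24.4 ± 3.85 to 107 ± 27.2 CPM per kb in Col-0, from 5.56 ± 0.225 to 51.8 ± 14.7 in Cvi-0 and from 24.7 ± 2.85 to 72.6 ± 14.4 in Col-S. Cvi-0 was lowest in both conditions.

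**Figure D4:**
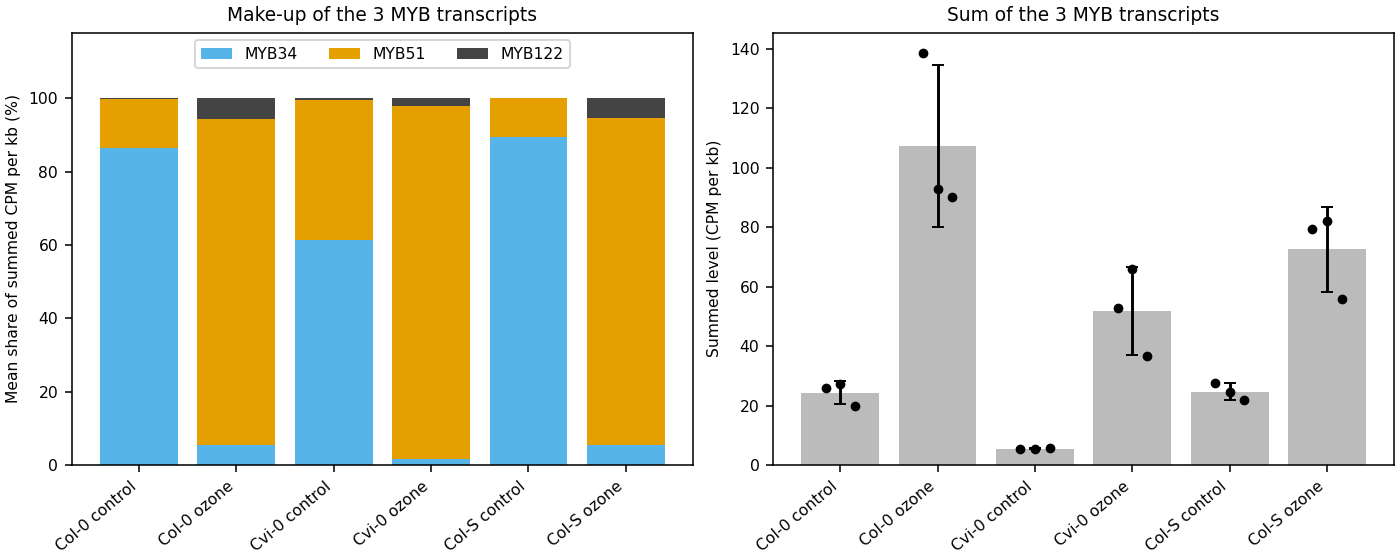
Left, mean share of each gene in the summed CPM per kb of MYB34, MYB51 and MYB122, in percent, for the 6 groups. Right, the sum in CPM per kb, with bars for the mean of 3 libraries, error bars for the SD and points for libraries. MYB34 holds 61.4% to 89.5% in controls and 1.66% to 5.56% after ozone, and the sum is lowest in Cvi-0.

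Between genotypes, calls among the 10 genes are given beside the shares of all tested genes, which were also larger where Cvi-0 was compared than between Col-S and Col-0. In controls, Cvi-0 against Col-0 gave 2 genes higher (SUR1 and PEN2) and 3 lower (CYP83B1, SOT16 and MYB34), where 12.2% of all genes were called higher and 11.8% lower. SUR1 was 1.70-fold higher (log2 0.77, SE 0.13, edgeR adjusted p = 3e-04). The PEN2 and SOT16 calls were slight, at log2 0.50 (SE 0.14, 0.017) and -0.45 (SE 0.16, 0.046). PEN2 lost its call without Col-0 control replicate 2 or 3 or Cvi-0 control replicate 1 or 3 (0.059 to 0.08), and SOT16 without any Col-0 control or without Cvi-0 control replicate 2 or 3 (0.072 to 0.16). With a replicate block UGT74B1 was also called higher (log2 0.31, 0.032), as it was without Col-0 control replicate 2 (0.041).

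Col-S controls against Cvi-0 mirrored this, with 2 genes higher (CYP83B1, log2 1.26, 1.1e-05; MYB34, log2 2.68, 2.2e-06) and 2 lower (SUR1, log2 -0.83, edgeR adjusted p = 0.00015; PEN3, log2 -0.62, 0.023), where 10.2% and 10.9% of all genes were called. The PEN3 call was lost in a fit of those groups alone (0.069) and without Cvi-0 control replicate 1 or 3 or Col-S control replicate 1 or 2 (0.056 to 0.18). UGT74B1 was called lower with a replicate block (log2 -0.30, 0.046), and SOT16 higher in a fit of those groups alone (log2 0.40, 0.027). Col-S against Col-0 controls gave 0 called genes of the 10 in edgeR and in DESeq2, where 0.339% of all genes were called higher and 0.504% lower, and 1 gene, PEN3, had an unadjusted p under 0.05. The 2 contrasts with Cvi-0 share the Cvi-0 libraries.

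After ozone, Cvi-0 against Col-0 gave 1 gene higher, UGT74B1 (2.02-fold, log2 1.01, SE 0.13, edgeR adjusted p = 5.1e-06), and 3 lower, the 3 regulators, where 24.6% and 24.4% of all genes were called, so the count of the 10 was near the background. Col-S against Cvi-0 gave MYB34 (log2 2.29, 0.00012) and MYB122 (log2 1.81, 0.00046) higher and CYP83B1 (log2 -0.48, 0.027), SUR1 (log2 -0.58, 0.0028) and UGT74B1 (log2 -1.24, 8.9e-07) lower, where 14.8% and 13.8% were called. The CYP83B1 call was lost without Cvi-0 ozone replicate 1 or 2 or Col-S ozone replicate 1 (0.077 to 0.12). Without the Col-S ozone library of replicate 2, SOT16 was also called higher (log2 0.53, 0.017), and without Cvi-0 ozone replicate 3 CYP81F2 was called lower (log2 -0.90, 0.046). Col-S against Col-0 gave SUR1 (log2 -0.52, 0.011) and CYP81F2 lower, where 10.2% and 5.74% were called. The SUR1 call was lost in a fit of those groups alone (0.089) and without Col-S ozone replicate 1 or 3 (0.067 and 0.062), and without Col-S ozone replicate 2 MYB34 was called lower (log2 -0.97, 0.019).

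In the comparison of responses, Cvi-0 against Col-0 gave 2 genes higher and 1 lower, where 11.1% and 10.3% of all genes were called, and Col-S against Cvi-0 gave 2 lower, where 2.66% were called higher and 2.2% lower. Without Cvi-0 control replicate 2, PEN3 was also called there (log2 0.84, edgeR adjusted p = 0.047). Col-S against Col-0 gave 0 of the 10 genes in edgeR and in DESeq2, where 2.94% and 0.325% were called, and SUR1 had an unadjusted p under 0.05. Those shares rest on 606 genes higher and 67 lower, counts that depended on the fit: 1058 and 424 with a replicate block, 263 and 16 with those groups alone, 277 and 30 without Col-0 control replicate 2, and 1065 and 243 without Col-S ozone replicate 2. SUR1 was called in this contrast without Col-S ozone replicate 2 (log2 -0.64, 0.024).

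The other core genes split. Of 8, in Col-0 3 rose and 2 fell, in Cvi-0 5 rose and 3 fell, and in Col-S 3 rose and 3 fell. The share of all tested genes called higher was 29.8% (Col-0), 34.5% (Cvi-0) or 34.3% (Col-S). The share called lower was 27.5%, 36.1% or 34% in that order. The Col-0 and Col-S counts of these 8 genes thus lay near the background, and whether the list differed from other genes was not tested. The 2 that fell in Col-0 became 0 without Col-0 control replicate 1 or either of its ozone replicates 1 and 3, 1 without control replicate 2, and 4 with upper quartile scaling, library totals or a replicate block. GSTF10 (AT2G30870), a glutathione transferase, rose in each, from 128 ± 3.56 to 795 ± 163 CPM in Col-0, from 174 ± 17.7 to 687 ± 115 CPM in Cvi-0 and from 120 ± 5.83 to 570 ± 59.4 CPM in Col-S (SD, n = 3). GGP1, the peptidase that trims the glutathione conjugate, rose by 1.77 (SE 0.17), 1.41 (SE 0.16) and 1.73 (SE 0.17) on the log2 scale (edgeR adjusted p of 9.4e-08, 6.9e-07 and 8.2e-08). GSTF9, the neighbour and close relative of GSTF10, fell by 0.32 (0.03) in Col-0, 0.83 (9.4e-06) in Cvi-0 and 0.70 (6.1e-05) in Col-S.

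Among 8 other genes of ring modification, 4 rose in Col-0, 5 in Cvi-0, and 5 rose and 1 fell in Col-S. The gene that fell was IGMT5 (log2 -1.45). Across all tested genes, 29.8% (Col-0), 34.5% (Cvi-0) and 34.3% (Col-S) were called higher. Those called lower made up 27.5%, 36.1% and 34% in that order. Whether this list differed from other genes was not tested. The members that rose in each genotype were IGMT1 to IGMT4, a tandem group. IGMT2 had a log2 fold change of 7.27 (SE 0.29) in Col-0, 5.11 (SE 0.26) in Cvi-0 and 6.72 (SE 0.29) in Col-S, and IGMT1 of 4.65 (SE 0.21), 5.95 (SE 0.22) and 4.16 (SE 0.21). IGMT3 stood at 5.74, 5.65 and 5.31. Between 9.05% and 44.7% of the 50-base windows of these 4 genes occur elsewhere in the genome, so the split of reads among them is uncertain. CYP81F1, CYP81F3 and CYP81F4, the relatives of CYP81F2, stayed within -0.26 to 0.99 in all genotypes, and of them CYP81F3 passed the test in Cvi-0 (log2 0.77, edgeR adjusted p = 0.015) and Col-S (0.92, 0.009). Reads of CYP81F1, CYP81F4 and IGMT5 may each be shared with an overlapping gene.

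Genes of breakdown and later use went both ways. Of 13 listed, 12 were tested, with 4 higher and 4 lower in Col-0, 4 higher and 4 lower in Cvi-0, and 6 higher and 4 lower in Col-S. As background, 29.8% (Col-0), 34.5% (Cvi-0) or 34.3% (Col-S) of all tested genes were called higher. Those called lower made up 27.5%, 36.1% or 34% in the same order. The Col-0 and Cvi-0 counts of the 12 genes thus lay near the background, and whether this list differed from other genes was not tested. PCS1 (AT5G44070), phytochelatin synthase, which acts on products of the PEN2 branch, rose from 55.8 ± 4.81 to 602 ± 82.2 CPM in Col-0, from 57.6 ± 8.30 to 723 ± 97.1 CPM in Cvi-0 and from 49.95 ± 0.135 to 659 ± 198 CPM in Col-S (SD, n = 3). GSTU13, a glutathione transferase of the same branch, rose by 1.85 (SE 0.13), 1.79 (SE 0.13) and 1.76 (SE 0.13) on the log2 scale. ESP, a specifier protein of the classical myrosinase system, fell by 2.12 (SE 0.29, edgeR adjusted p = 8.6e-06) in Col-0, 1.84 (SE 0.27, 1.2e-05) in Cvi-0 and 3.07 (SE 0.31, 1.3e-07) in Col-S. NIT1, a nitrilase, fell by 0.90, 1.57 and 1.47 (0.00094, 2.2e-06 and 5.2e-06). The classical myrosinase TGG1 kept means between 2428 and 3215 CPM in the 6 groups, with a call in Col-S alone (log2 0.30, 0.043). Of the 3 carriers tested, GTR2 rose in each genotype (log2 0.98, 0.75 and 1.13), and its reads may be shared with an overlapping gene, as may those of NRT1.9, which fell in Col-S (log2 -0.58, 0.0041).

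Of 8 other regulators, 5 rose in every genotype, while 2 fell in Col-0 and Col-S and 3 in Cvi-0. Across all tested genes, 29.8% (Col-0), 34.5% (Cvi-0) and 34.3% (Col-S) were called higher. Those called lower made up 27.5%, 36.1% and 34% in that order, so the counts that fell lay near the background. Whether this list differed from other genes was not tested. WRKY33, a defence regulator, had log2 fold changes of 5.28 (SE 0.28), 5.82 (SE 0.29) and 6.07 (SE 0.29), with a gene overlapping it. The kinase gene MPK3 stood at 2.62 (SE 0.15), 2.70 (SE 0.15) and 3.52 (SE 0.16). The jasmonate regulators MYC2 and MYC4, partners of the glucosinolate MYB factors, parted: MYC2 rose by 1.01 to 1.90 and MYC4 fell by 1.85 (SE 0.14, edgeR adjusted p = 5e-09) in Col-0, 2.79 (SE 0.15, 3.6e-11) in Cvi-0 and 2.18 (SE 0.14, 4.7e-10) in Col-S.

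All 7 listed genes of the aliphatic branch, which has others, fell in every genotype. Their medians were -1.09 in Col-0, -2.18 in Cvi-0 and -1.78 in Col-S on the log2 scale. Across all tested genes, 27.5% (Col-0), 36.1% (Cvi-0) and 34% (Col-S) were called lower. Whether the aliphatic list differed from other genes was not tested. MYB28, the main aliphatic regulator, went from 121.8 ± 3.03 to 46.1 ± 5.18 CPM in Col-0, from 196 ± 12.5 to 25.8 ± 3.00 CPM in Cvi-0 and from 119 ± 11.5 to 32.0 ± 3.06 CPM in Col-S (SD, n = 3). Its relatives MYB29 (log2 fold changes of -1.66, -2.91 and -2.29) and MYB76 (-2.21, -3.19 and -2.89) fell as well, as did AT2G31790 (-1.09, -1.74 and -1.78). Reads of AT2G31790 may be shared with an overlapping gene. SOT18, the aliphatic counterpart of SOT16, fell by 0.90 (SE 0.20, edgeR adjusted p = 0.00088), 2.18 (SE 0.21, 5.1e-08) and 1.71 (SE 0.20, 1e-06) on the log2 scale. All 6 listed genes of the other uses of indole-3-acetaldoxime, the camalexin route among them, rose in every genotype. Across all tested genes, 29.8%, 34.5% and 34.3% were called higher in Col-0, Cvi-0 and Col-S, and this list was not tested against them. CYP82C2, 1 of the 6, held 3 or fewer counts in the control groups of Cvi-0 and Col-S. It passed the filter through other libraries, so its calls there add no support. CYP71A12 went from 0.694 ± 0.533 to 394 ± 95.9 CPM in Col-0, from 1.10 ± 0.466 to 457 ± 68.3 CPM in Cvi-0 and from 0.390 ± 0.151 to 478 ± 81.5 CPM in Col-S. PAD3, which completes camalexin, had log2 fold changes of 7.80 (SE 0.66), 8.04 (SE 0.67) and 9.51 (SE 0.73), AT1G26380 of 8.70, 9.59 and 9.75, and CYP71B6 of 2.39, 0.93 and 2.15. Reads of CYP71B6 may be shared with an overlapping gene. The median of these 6 genes was 6.70 in Col-0, and with CYP82C2 at its bound or counted ratio it was 7.99 in Cvi-0 and 9.07 in Col-S (8.33 and 8.88 as fitted).

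In tryptophan synthesis, which feeds the pathway, 6 of 8 listed genes rose in Col-0. In each of Cvi-0 and Col-S, 7 rose and 1 fell. Across all tested genes, 29.8% (Col-0), 34.5% (Cvi-0) and 34.3% (Col-S) were called higher. Those called lower made up 27.5%, 36.1% and 34% in that order. Whether this list differed from other genes was not tested. ASA1 (AT5G05730), the anthranilate synthase subunit that opens the route, went from 39.3 ± 2.36 to 425 ± 68.3 CPM in Col-0, from 58.3 ± 5.94 to 615 ± 29.98 CPM in Cvi-0 and from 39.4 ± 3.80 to 406 ± 51.9 CPM in Col-S (SD, n = 3). TSB1, a tryptophan synthase subunit, rose by 3.28 (SE 0.16), 2.99 (SE 0.16) and 2.86 (SE 0.16) on the log2 scale. AT2G04400 had log2 fold changes of 2.57, 3.28 and 2.77, with a gene overlapping it. In Col-0 the genes that did not pass were TSB2 (log2 0.14, SE 0.20, edgeR adjusted p = 0.56) and PAI1 (-0.12, 0.4), and PAI1 was the gene that fell in Cvi-0 (-0.74) and Col-S (-0.52). PAI1 has copies elsewhere in 70.3% of its 50-base windows, and ASB1, which rose by 3.74 to 3.88, in 42.1%. Another gene also overlaps ASB1.

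**Figure D5:**
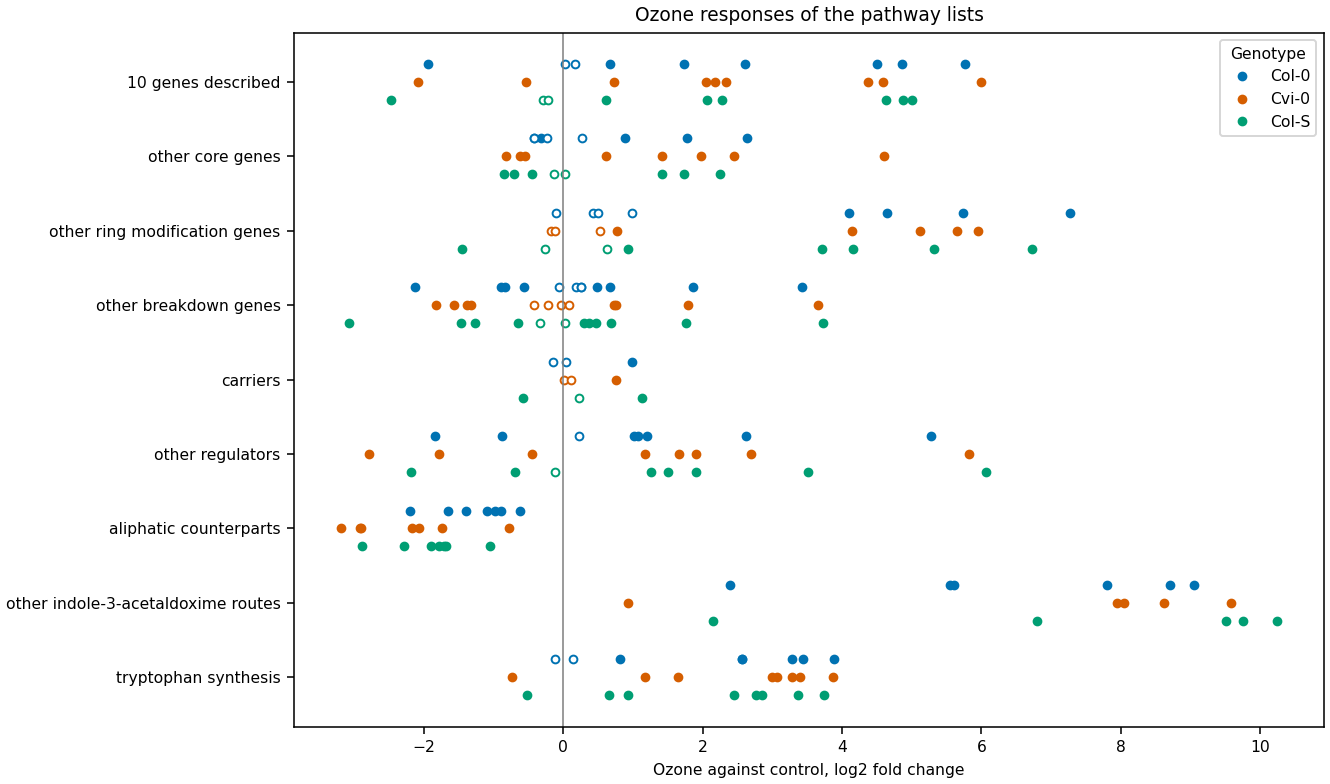
Log2 fold change of ozone against control for each tested gene among the 10 genes and the 8 other lists, with Col-0 in blue, Cvi-0 in orange and Col-S in green. Filled points passed the test and open points did not, and genes with 3 or fewer counts in the control group are left out. All points of the aliphatic list lie below 0, with medians from -2.18 to -1.09, and all points of the other indole-3-acetaldoxime routes lie above 0.

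The order of the levels over the 6 groups separated the genes. For PEN2, PEN3, SOT16, CYP81F2, MYB51, MYB122 and CYP83B1 the 3 ozone means came first, and the lowest of these groups did not overlap the highest control group. For MYB122 this adds no support, since it passed the filter through its ozone libraries. The overlap between neighbours within the ozone groups or within the controls was frequent: all neighbouring ozone groups of SOT16, PEN2 and PEN3 overlapped. MYB34 had the Col-S and Col-0 controls at the top, and these overlapped each other. SUR1 was highest in Cvi-0 controls and UGT74B1 in Cvi-0 ozone, each clear of the group after it. The ratio of the highest to the lowest group mean was 2.18 for SUR1, 2.36 for UGT74B1, 5.06 for CYP83B1, 5.32 for SOT16 and 6.36 for PEN2.

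Likeness of profile was measured as the root mean square difference over the 6 group means of log2 CPM after centring each gene, with a prior of 0.5 CPM. Among the 10 genes the pair nearest each other was PEN2 and SOT16, at 0.38, beside SUR1 and UGT74B1, also at 0.38, and MYB51 and PEN3 followed at 0.42. The distance is not scaled by how far a gene moves, so genes that moved little can lie near each other. SUR1 and UGT74B1 responded in opposite directions in Cvi-0, with log2 fold changes of -0.54 and 0.72. The MYB34 profile was far from the rest of the 10 genes, with SUR1 nearest at 1.66. Over all tested genes, the profile nearest to SOT16 was CDPK2 (AT1G35670) at 0.03, then AT5G54940 at 0.05 and AT3G60680 at 0.08. For PEN3 it was IAR3 (AT1G51760) at 0.14, for MYB51 AT4G22530 at 0.13 and EDA39 (AT4G33050) at 0.16, for PEN2 AT5G57060 at 0.09 and for CYP81F2 TDR1 (AT3G23230) at 0.17. CYP83B1 was nearest to AT1G68110 at 0.17, SUR1 to JAL23 (AT2G39330) at 0.08, UGT74B1 to AT2G22610 at 0.06, and MYB122 to AT5G48530 at 0.24. MYB34 lay nearest to MIR167d (AT1G31173) at 0.20. With 6 points a gene, such distances describe these groups only.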

How the data were processed

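Whole-rosette mRNA was sequenced in 18 libraries, 3 for each of 6 groups. The deposited values were raw counts per gene, whole numbers with no normalization. Per the submitters' processing notes, FastQC, TopHat2, SAMtools and HTSeq were used with TAIR10, while for strandedness, counting mode and multiply mapped reads the setting is not given in the sources used here. How Cvi-0 sequence differences affect its counts was not tested. The 279 organelle genes had 0 counts. One edgeR 4.0.16 quasi-likelihood fit (R 4.3.3, limma 3.58.1, filterByExpr, TMM, 1 mean per group, 12 residual degrees of freedom) gave 12 comparisons, with Benjamini-Hochberg adjustment over 20622 genes and a threshold of 0.05. Scripts were tested on simulated data.

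Alternatives were DESeq2 1.42.0, its size factors in edgeR, upper quartile scaling, library totals, no filter, a stricter filter (CPM of at least 1 in 3 libraries), a replicate block, the compared groups alone, and leaving out each library. Replicate numbers come from the sample titles. Same-numbered samples deviated together with every correlation over 0.1 in 12 of 15 group pairs, which left out the control and ozone groups of Col-0 and of Cvi-0 and the pair of Cvi-0 controls with Col-S ozone. In 44 of 45 checks a sample correlated best with the same-numbered sample of the other group. Same-numbered correlations ran from 0.0507 to 0.527, and others reached at most 0.19. The main fit held no replicate block. Replicates are labelled biological. Intervals and floors cover counting error only.

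The 10 genes and the lists were chosen with earlier results of these data known. All 10 were to be named in every comparison, with up to 3 called genes of smallest p from each list per ozone response and the 3 most alike profiles of each gene. Other genes named were chosen after their values were seen. Promoters and names are from RefSeq, TAIR10.1, and 31912 gene codes matched the name table.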

Additional observations from a re-analysis of the deposited data

Results flagged for a closer look

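The results in this section were picked out because 2 genotypes differed in their response to ozone by the edgeR interaction contrast, with adjusted p under 0.05 over all tested genes. Each value is a difference of log2 fold changes, and the contrasts share libraries. Of the 10 genes, CYP83B1 responded more in Cvi-0 than in Col-0 by 1.67 (SE 0.22, adjusted p = 6.7e-05) and less in Col-S than in Cvi-0, at -1.73 (SE 0.22, 0.00012). UGT74B1 differed by 0.70 (SE 0.18, 0.0089) between Cvi-0 and Col-0 and by -0.95 (SE 0.18, 0.0038) between Col-S and Cvi-0. SUR1 differed by -0.71 (SE 0.18, 0.011) between Cvi-0 and Col-0.

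Among the other core genes, the aldoxime-forming CYP79B2 differed by 3.72 (SE 0.37, adjusted p = 6.4e-06) and CYP79B3 by 2.87 (SE 0.27, 4.6e-06) between Cvi-0 and Col-0. Between Col-S and Cvi-0 the values were -3.19 (SE 0.37, 5.8e-05) and -2.90 (SE 0.27, 8.6e-06). The glutathione transferase genes GSTF9 and GSTF10 differed by -0.51 (SE 0.17, 0.042) and -0.65 (SE 0.21, 0.033) between Cvi-0 and Col-0. The rosette marker sum also fell further in Cvi-0, to between 14144 and 17698 CPM, than in Col-0, to between 26635 and 35266 CPM, and its part in these differences was not tested.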

How the results depend on the processing

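No call of the 10 genes changed direction under any alternative that was run, and 1808 of their fold changes stayed on the same side of the threshold, while 19 gained and 30 lost it. In Col-S, 1 of the 10 genes was called lower after ozone, against 3 with upper quartile scaling, 3 with library totals only and 2 with the replicate block. Col-S below Cvi-0 in controls went from 2 genes to 1 in a fit of those groups alone. Col-S below Col-0 after ozone went from 2 genes to 1 with DESeq2's size factors, 1 in DESeq2 and 0 in a fit of those groups alone. The cause was not tested. The replicate block changed 4 calls, each given beside its result, and no other call of the 10 genes.

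Leaving out 1 library gave between 1 and 3 genes lower in the Col-S response. In the differences of responses it gave 0 to 1 lower for Col-S against Col-0 and 0 to 1 higher for Col-S against Cvi-0. In controls it gave 1 to 2 higher and 2 to 3 lower for Cvi-0 against Col-0, and 1 to 2 lower for Col-S against Cvi-0. After ozone it gave 2 to 3 lower for Cvi-0 against Col-0, 0 to 2 lower for Col-S against Col-0, and 2 to 3 higher with 2 to 4 lower for Col-S against Cvi-0. Of the list counts, 658 stayed within 1.5 times and 14 did not: other core genes lower in Col-0 went from 2 to 4 with upper quartile scaling, library totals or the block, and to 0 with the groups alone. Breakdown genes lower in Cvi-0 went from 4 to 7, and those higher in Col-S from 6 to 3, with upper quartile scaling, which also took the genes lower in Col-0 from 0 to 1 in the transport and the tryptophan list. Depth limited MYB122 and CYP82C2 in controls, where a group held 3 counts or fewer. Over all tested genes, calls for Col-S against Col-0 moved by over 1.5 times as well, from 70 higher and 104 lower in controls to 34 and 71 with those groups alone and 96 and 189 in DESeq2, from 606 and 67 in the difference of responses to 1128 and 158 in DESeq2, and from 2094 and 1184 after ozone to 933 and 258 with those groups alone and 2713 and 2163 with the block.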

Other observations

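Cvi-0 also differed from Col-0 in genes of the breakdown and tryptophan supply lists, named here after their values were seen. ESP, the specifier protein that directs glucosinolate breakdown to other products than isothiocyanates, stood at 34.2 ± 0.943 CPM in Col-0 controls, 41.9 ± 4.04 CPM in Col-S controls and 3749 ± 428 CPM in Cvi-0 controls (SD, n = 3). The log2 difference of Cvi-0 from Col-0 was 6.77 (SE 0.34, edgeR adjusted p = 1.3e-10) in controls and 7.06 (SE 0.35, 8.5e-11) after ozone. TSB2, a tryptophan synthase subunit, stood 2.16-fold higher in Cvi-0 controls (0.00037) and 4.41-fold higher after ozone (1.9e-07), and its response differed by 1.03 (SE 0.27, 0.013). BGLU18, a beta-glucosidase, fell in Cvi-0 by 1.32 on the log2 scale (SE 0.17, 2.9e-06), and its response differed from that of Col-0 by -1.51 (SE 0.24, 0.00043).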
